A study of Mus musculus with 12 samples.

Results

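The genes of the cytosolic ribosome encode the proteins that, together with ribosomal RNA, build the 2 subunits on which the cell makes its proteins. They were taken from the table of counts by their symbols: names made of Rpl or Rps, a number and at most a short suffix, plus Rpsa and the P stalk genes Rplp0, Rplp1 and Rplp2, leaving out pseudogene rows and the S6 kinases. This gave 83 of the 33924 rows, 33 of the small subunit (Rps and Rpsa) and 50 of the large subunit (Rpl and Rplp). The rule itself uses symbols and no measured value, but the family was chosen with earlier results of these data known.

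The study sequenced RNA of sorted bone marrow progenitors from mice with 1 floxed copy of Wt1 and from control mice, at 2 ages. All mice were Mx+, in such crosses usually the Mx1-Cre transgene, whose interferon-inducible promoter drives Cre in many cell types besides blood cells. The controls were Mx+ Wt1+/+ and the heterozygotes, called het here, Mx+ Wt1fl/+. Both genotypes were sampled at both ages with 3 libraries in each of the 4 groups, and the labels join old to the word chronic and young to acute without explaining either, so that age and this condition cannot be told apart. The cells came from femurs and tibias and were sorted as live, lineage-negative, Sca1-negative and c-Kit-positive cells, a gate that holds the myeloid and erythroid progenitors. The labels do not say whether and when Cre was induced, nor whether the 3 libraries of a group came from separate animals. What the p-values measure is therefore how far these libraries spread, which may be technical.

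Ribosomal protein mRNAs are among the most abundant messages of a growing cell. Most of them begin with a run of pyrimidines at the cap, the TOP motif, through which the mTORC1 pathway and the protein Larp1 control their translation as a group. In blood formation their dose matters: loss of 1 copy of any of several of these genes causes Diamond-Blackfan anaemia, in which red cell precursors fail, and loss of a copy of RPS14 contributes to the myelodysplasia with a deletion on the long arm of human chromosome 5. Free RPL5 and RPL11 bind Mdm2 and so stabilise p53.

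The start sites of the members are shown because the pyrimidine run is what the family shares at the level of sequence. Each line gives 15 bases on either side of an annotated RefSeq start in GRCm38.p6, read 5′ to 3′ on the strand of the gene. Capitals mark the longest run in the window that begins with C and holds at least 4 further pyrimidines.
Rps10, chr17:27635230-27635259, minus strand: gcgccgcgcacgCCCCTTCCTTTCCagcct
Rps18, chr17:33955651-33955680, minus strand: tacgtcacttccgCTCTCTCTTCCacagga
Rpl14, chr9:120571502-120571531, plus strand: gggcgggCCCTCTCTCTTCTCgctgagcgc
Rps9, chr7:3704026-3704055, plus strand: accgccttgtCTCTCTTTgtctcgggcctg
Rplp2, chr7:141447636-141447665, plus strand: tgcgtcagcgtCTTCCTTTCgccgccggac
Rps6, chr4:86857353-86857382, minus strand: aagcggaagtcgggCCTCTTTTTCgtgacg
Rpl6, chr5:121204486-121204515, plus strand: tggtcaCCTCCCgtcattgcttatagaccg
Rpsa, chr9:120127751-120127780, plus strand: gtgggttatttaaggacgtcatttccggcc

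Rps10, Rps18, Rpl6 and Rpsa are shown because their counts passed the test described below, Rpl14 and Rps9 because their young groups did not overlap, Rplp2 for the P stalk and Rps6 because it was hardly counted. In Rps6, Rps18 and Rps10 the run began at positions -1, -2 and -3 from the annotated start. In Rpl6 it began at position -9 and was 6 bases long, and no such run lay in the window of Rpsa. RefSeq held an entry for 61 of the 83 members with 73 starts, and 44 of these 73 windows (60.3%) held a run on the strand of the gene, against 36.4% of all 32851 windows of the same length. A run that began within 2 bases of the start was found in 13.7% of the members' windows and in 5.84% of all windows. A match is a description of these letters, and annotated starts can lie some bases away from the start used in these cells.

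Total counts per library ranged from 645460 to 9645502, and the 2 extremes were young control 2 and old control 1. Levels are given in CPM, the counts scaled to a common total, here the library's TMM-scaled total. The kit reads 1 end of a transcript, so levels were not divided by length. A count of 0 allowed a level of up to 0.275 CPM in old control 1 and 5.10 CPM in young control 2 (3 counts, counting error only). Kit, which the sort selects, was present at 96.5 to 291 CPM in the 12 libraries, and Ly6a, the gene of Sca1, at 0 to 1.18 CPM in 11 libraries but 69.8 CPM in old control 1. The summed level of 14 stem and multipotent progenitor genes, Ly6a among them, was 2320 CPM in old control 1 and 546 to 999 CPM in the other libraries. Wt1 was low, with 0.0916 to 0.943 CPM in old controls, 0.802 to 2.63 in old hets, 4.59 to 6.80 in young controls and 0.601 to 3.92 in young hets. The labels do not say which part of Wt1 the floxed allele loses, so these 3′ counts do not check the genotype.

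The members held between 2.26% and 4.42% of all counts. Old controls gave 4.42%, 3.69% and 3.94% (libraries 1 to 3, mean 4.02%, SD 0.373), and old hets 3.19%, 3.70% and 3.39% (3.43%, SD 0.258). Young controls gave 2.59%, 2.26% and 3.57% (2.81%, SD 0.684), and young hets 3.09%, 3.89% and 3.34% (3.44%, SD 0.409). All old controls lay above all young controls, whereas old and young hets overlapped, as did hets and controls at either age. In bulk samples fewer cells of a type and less RNA per cell cannot be told apart, and a share of counts also moves with every other RNA in the library.

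A single gene shaped these shares. Rplp1, an acidic protein of the P stalk that helps to recruit the elongation factors, had the highest mean level of the family (5531 CPM) and on average 16.3% of the member counts of a library, but its part varied from 5.25% of the member counts in old control 1 to 36.1% in young control 3. With Rplp1 left out, the members held 3.34% to 4.19% of all counts in old controls, 2.49% to 3.47% in old hets, 1.78% to 2.28% in young controls and 2.62% to 3.09% in young hets, and young hets no longer overlapped young controls. The balance of the subunits was even once Rplp1 was set aside: small subunit genes then had 50.4% to 56.2% of the member counts in all 12 libraries, with group means of 54.7% and 53.7% in old controls and old hets and 53.7% and 54.0% in young controls and young hets. With Rplp1 included the small subunit share was 48.9% to 52.5% in old controls and 35.1% to 42.1% in young controls.

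**Figure D1:**
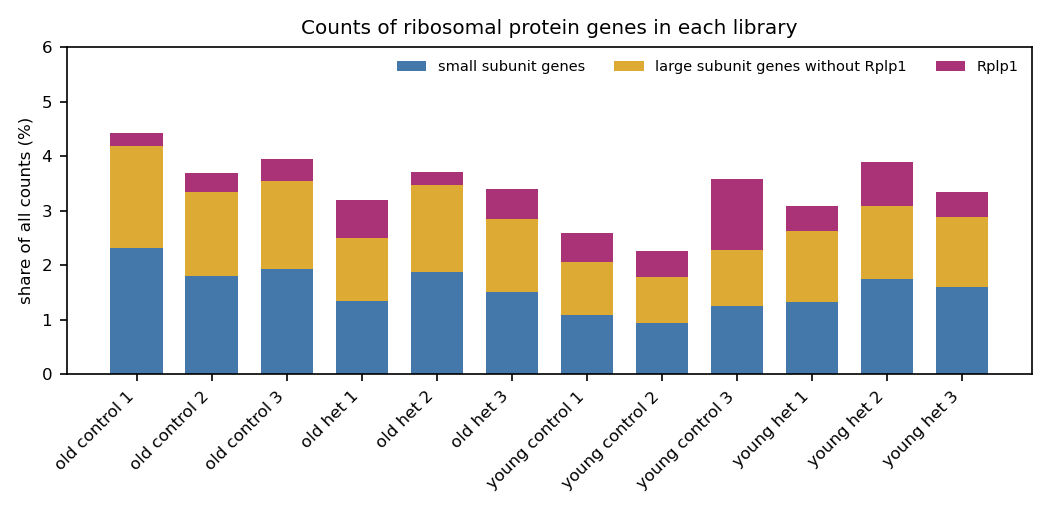
Share of all counts (%, vertical axis) held by small subunit genes, large subunit genes without Rplp1, and Rplp1 in each of the 12 libraries. The total is 4.42% in old control 1 and 2.26% in young control 2, and the Rplp1 segment is tallest in young control 3.

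Levels within the family spanned several orders of magnitude. Averaged over the 12 libraries, 33 members reached 100 CPM or more. After Rplp1, high levels were found for Rpl14 with 2836 CPM, Rps20 with 2221 CPM, Rps14 with 2134 CPM and Rpl8 with 1939 CPM. The median member lay at 49.8 CPM (57.6 for the small and 37.7 for the large subunit). Another 21 tested members lay between 20 and 100 CPM and 21 below 20 CPM. Among the latter were Rpl5 (5.66 CPM) and Rpl11 (7.51 CPM), the pair that reports ribosome stress to p53, and the X-linked Rps4x (5.15 CPM).

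The filter on low counts was passed by 75 members, 31 small and 44 large. The 8 others were Rpl10l and Rpl3l, with 0 counts in every library, and Rpl39l, Rps6, Rps27, Rpl10a, Rpl28 and Rpl36. Rpl10l and Rpl39l are known as testis paralogs and Rpl3l as a muscle paralog. Rps6, the substrate of the S6 kinases, is a core protein of the small subunit, yet it had between 0 and 8 counts in a library. Rps27 had 0 to 23 counts, Rpl10a 1 to 21, Rpl28 0 to 45 and Rpl36 0 to 51.

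Ribosomal protein genes have many processed copies in the genome, and reads that match several genes are often not counted. In the last 300 bases of the GENCODE M21 transcripts, 26 of the 81 members with a transcript shared no window of 50 bases with a transcript of another gene, and their median level was 109 CPM. In the 19 members with more than 80% of such windows shared the median level was 5.73 CPM, 2 of them (Rpl13 and Rpl24) reached 100 CPM and 4 (Rpl10a, Rpl36, Rps6 and Rps27) failed the filter. The 15 members with up to 50% and the 21 with more than 50% and up to 80% of windows shared had medians of 121 and 91.0 CPM. Across these 81 genes, which share their libraries, Spearman's rho between level and shared windows was -0.30 and Pearson's r with the log2 level was -0.28, both as descriptions. Rpl28, Rpl5, Rpl11 and Rpl3l were low with no window shared. How the counting treated reads with several matches is not stated, and its part in the low levels was not tested.

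**Figure D2:**
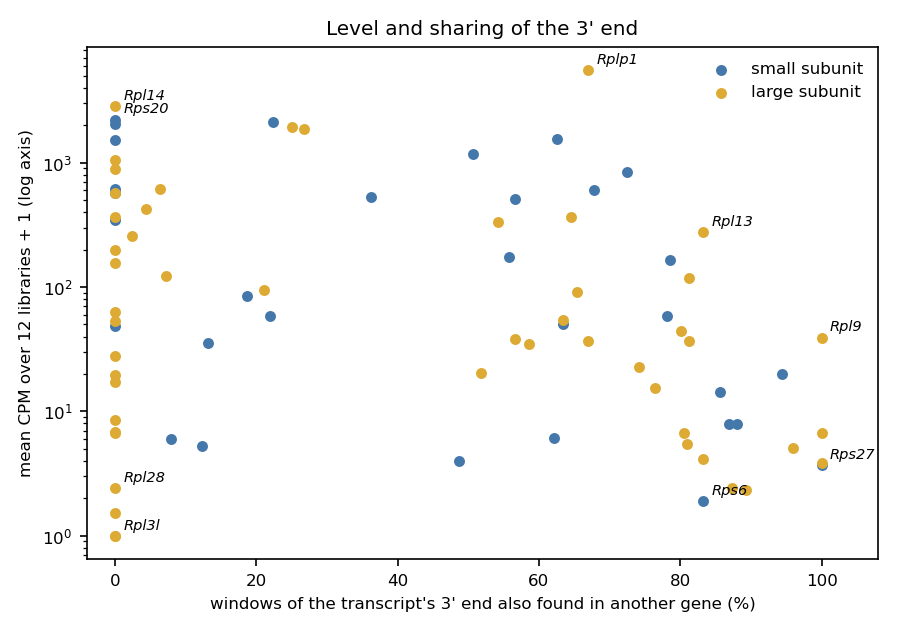
Mean level of each member over the 12 libraries (CPM plus 1, log axis) against the share of 50-base windows in the last 300 bases of its transcript that also occur in a transcript of another gene (%). Most members with over 80% of windows shared lie below 50 CPM, while members without a shared window range from 0 to 2836 CPM.

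Part of the family's reads stood in rows named as pseudogenes. Of 163 rows that carry a member's name with the suffix -ps, 131 had counts, and in 10 of the 52 members with such rows these outnumbered the gene's own row. Rpl10a had 52 counts in all libraries together against 26066 in its pseudogene rows, of which Rpl10a-ps1 held 25927. Rpl38 had 3893 counts against 12134. Rpl10 had 131 against 4086, and Rps6 had 23 against 262. For every 100 counts of members the pseudogene rows held 10.9 to 18.5 in young controls, 3.65 to 4.68 in old controls, 2.97 to 9.22 in old hets and 5.90 to 7.06 in young hets, and young controls lay above all other libraries. Rpl10a-ps1 alone held 29.9% of the pseudogene counts. It averaged 2489 CPM in young controls (SD 1191), 341 in old controls, 578 in old hets and 635 in young hets. Rplp2-ps1, the next largest row, averaged 635, 406, 619 and 541 CPM in the same order. The shares were not computed without Rpl10a-ps1. Values of members with pseudogene rows are therefore uncertain as levels of the functional gene.

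In the young mice 1 of the 75 tested members passed the test between het and control, and it was lower in het. Rpl6, a large subunit protein, measured 562, 656 and 247 CPM in young controls and 159, 96.7 and 123 CPM in young hets. All young hets lay below all young controls, and young control 3 lay closest to them. The log2 change was -1.95 (SE 0.39, a 3.86-fold lower level, edgeR adjusted p = 0.0394 by the quasi-likelihood F test). Over all genes 0.424% passed the test, 0.179% as higher and 0.245% as lower in het. The call depended on which libraries were kept: it was lost without young control 1 (adjusted p = 0.0893), young control 2 (0.169), young het 1 (0.0537), young het 2 (0.176) or young het 3 (0.113), and it stood at 0.00582 without young control 3. The log2 change itself ran from -2.26 to -1.71 in these 6 fits. Mitochondrial ribosomal RNA moved with this comparison, at 4.35% to 8.22% of the counts in young controls and 2.999% to 3.51% in young hets, and with its log2 share as a covariate the change of Rpl6 was -1.29 (adjusted p = 0.267). Over all genes 2 passed with this covariate, against 45 without it. The share did not overlap between these groups, so that it cannot be fully told apart from the group difference.

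Of the 75, 48 (64.0%) had a log2 change above 0, against 54.2% of all tested genes, with a median of 0.26 against 0.08. This median was 0.0065 with the covariate of mitochondrial ribosomal RNA (0.063 for all genes) and 0.10 with a minimum count of 50 (0.022 for all genes). Of 13 neutrophil primary granule genes 12 lay higher in young hets and 2 passed the edgeR test, with summed levels of 6216 to 13305 CPM in young controls and 15429 to 16434 CPM in young hets. Basophil and mast genes summed to 265 to 566 and 777 to 1012 CPM (4 of 6 tested genes higher, 1 past the test). Stem and multipotent progenitor genes summed to 546 to 722 and 806 to 917 CPM (9 of 11 higher, none past the test). B lymphoid genes ran the other way, at 228 to 283 and 98.4 to 163 CPM (6 of 8 lower, none past the test). Sums of the remaining marker lists overlapped. The part of these cell type markers was not tested. The median of the members was 0.18 for small and 0.34 for large subunit genes. In 10 members every young het lay above every young control (9.72% of all genes did so) and in 2, Rpl6 and Rpl38, every young het lay below (7.12% of all genes). At an unadjusted p under 0.05 stood 8 members, that is 10.7%, against 14% of all genes, so members were no more often near the threshold than other genes.

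Rpl14 measured 1998, 1436 and 1933 CPM in young controls and 3131, 3292 and 3237 CPM in young hets, a log2 difference of 0.85 (SE 0.31, adjusted p = 0.218). Rps9 measured 881, 405 and 735 CPM in young controls and 1267, 1407 and 1177 CPM in young hets, a difference of 0.93 (SE 0.32, adjusted p = 0.185). Neither gene overlapped between these groups and neither passed the test. Rpl31, Rps26, Rpl5, Rps15a, Rpl7l1, Rps10, Rpl37a and Rps28 were the further members with all young hets above all young controls, with log2 differences from 0.39 in Rps28 to 2.60 in Rpl5. Rpl5 rested on few reads, at 4.56, 0 and 0 CPM in young controls and 19.5, 6.16 and 5.97 CPM in young hets. The small subunit gene Rps13 had a larger fitted difference (4.64, SE 1.74, adjusted p = 0.228), again from 0.759, 0 and 0 CPM in young controls. On the lower side Rps23 (-3.13, adjusted p = 0.319) came after Rpl6 by p.

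In the old mice no member passed the edgeR test between het and control, nor with DESeq2 or limma-voom, and in edgeR no other gene did either (0%). At an unadjusted p under 0.05 stood 7 members (9.33%) against 3.58% of all genes. The median log2 difference was -0.26 for members and -0.05 for all genes, nearly the same in small (-0.26) and large subunit genes (-0.27), and 23 of 75 members lay above 0 (30.7%, against 46.8% of all genes). In 9 members every old het lay below every old control (5.99% of all genes did so) and in 1, Rpl24, above (5.15%). The smallest p-values on the lower side belonged to Rps2, Rpl22 and Rps28 and on the higher side to Rpsa, Rps12 and Rplp2, all with an adjusted p of 0.999 in the edgeR test. With the covariate of mitochondrial ribosomal RNA the median of the members was -0.11, against -0.054 for all genes.

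Markers of other cells lay lower in old hets too, none past the test. Of 11 tested stem and multipotent progenitor genes 9 lay lower, 5 of them at an unadjusted p under 0.05, with a median of -1.29. All 11 tested megakaryocyte genes lay lower (median -0.79), and so did 6 of 7 dendritic and MHC class II genes (median -2.75), 6 of the 7 at an unadjusted p under 0.05. The summed levels of these lists overlapped between old hets and old controls, at 635 to 999 and 773 to 2320 CPM, 189.8 to 366 and 294 to 740.4 CPM, and 619 to 687 and 644 to 1239 CPM. The upper end for old controls was old control 1 in each list. Old controls 2 and 3 gave 773 and 815 CPM for the stem and multipotent progenitor list, within the range of the old hets. They gave 294 and 475 CPM for megakaryocyte and 777 and 644 CPM for dendritic and MHC class II genes. Their part in the difference of the members was not tested.

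Rps2, a small subunit protein, measured 76.6, 70.7 and 124 CPM in old controls and 25.1, 51.3 and 35.5 CPM in old hets, a log2 difference of -1.26 (SE 0.47). Rpl22, a protein that most cells can do without but developing T cells need, measured 852, 828 and 848 CPM in old controls and 323, 738 and 408 CPM in old hets, a difference of -0.78 (SE 0.35). In both genes the groups stood apart, and in both old het 2 lay nearest to the controls.

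Old het 2 differed from its 2 partners in many members. Among the 33 members at 100 CPM or more it lay at least 2-fold above both other old hets in Rpl34, Rpl37, Rpl37a, Rps18, Rps19 and Rps3, and at least 2-fold below both in Rplp1 and Rpsa. These 8 genes are 24.2% of the 33, and the same held for 14.3% of the 2037 genes at this level. Rps3, a protein at the mRNA entry channel of the small subunit, measured 699, 2572 and 883 CPM in old hets 1 to 3 and 3282, 1856 and 2027 CPM in old controls. Mitochondrial ribosomal RNA took 1.40% of the counts in old het 2 and 4.78% and 4.75% in old hets 1 and 3. Its part in the spread was not tested. Young control 3 stood apart from its partners in the same way in 5 of the 33 members (15.2%, against 16.3% of the 2037 genes), higher in Rplp1 and Rps15 and lower in Rpl4, Rpl6 and Rps19, and 21 of the 83 members had 0 counts in it, against 4 and 9 in young controls 1 and 2.

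**Figure D3:**
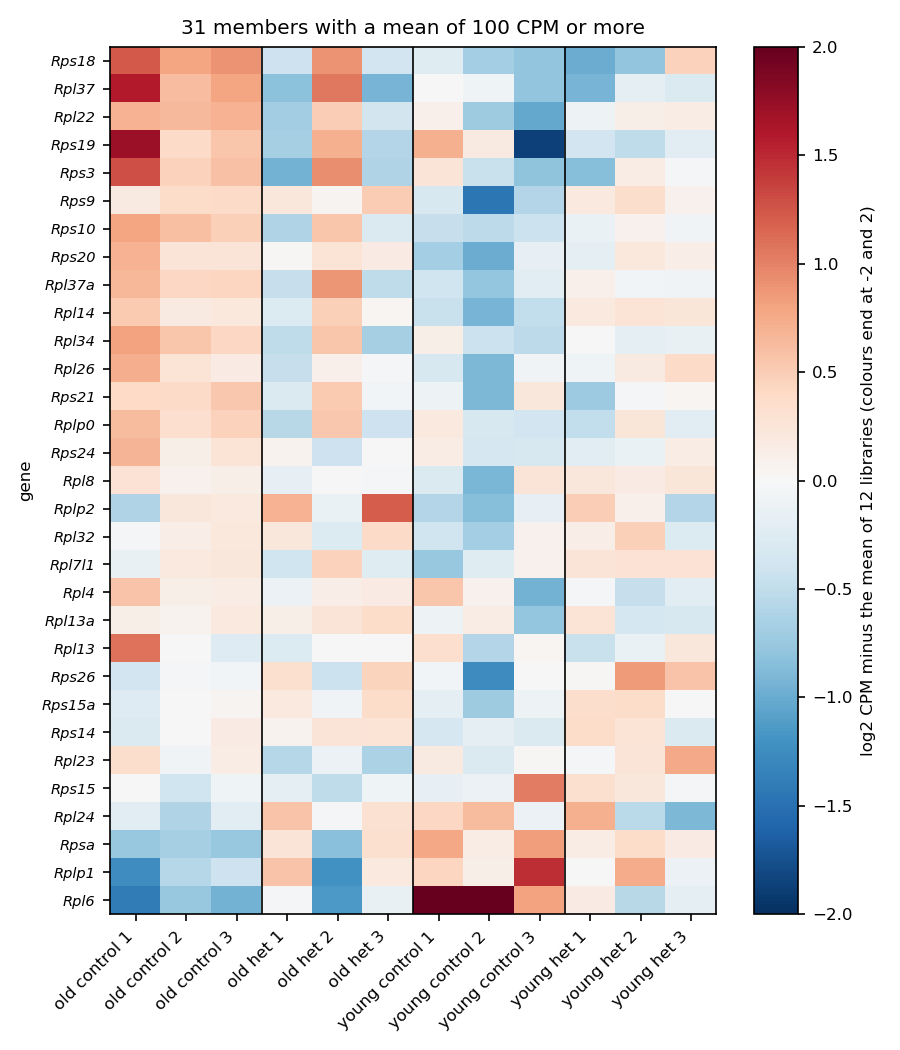
Level of 31 members with a mean of 100 CPM or more in each library, as log2 CPM minus the gene's mean over the 12 libraries (colour scale ending at -2 and 2), with lines between the groups. Most rows are red in the 3 old controls and in old het 2 and blue in the young controls, and Rpl6, Rplp1 and Rpsa run the other way.

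The difference between het and control in old mice minus that in young mice was tested as an interaction, and no member passed in edgeR, against 0.0849% of all genes. Its median was -0.55 over the members and -0.18 over all genes, at -0.32 in small and -0.60 in large subunit genes. Of the members 19 lay above 0 (25.3%, against 43.4% of all genes), and 10 stood at an unadjusted p under 0.05 (13.3%, against 12.8%). Rpl6 came closest at 2.59 (SE 0.55, adjusted p = 0.0616), followed on the positive side by Rpsa at 1.10 (adjusted p = 0.311) and Rplp1 at 1.26 (adjusted p = 0.406). On the negative side Rpl22 at -1.31 (SE 0.49, adjusted p = 0.260), Rps10 at -1.09 (SE 0.45, adjusted p = 0.299) and Rpl26 at -1.07 (adjusted p = 0.308) had the smallest p-values. The count of 0 turned on 2 libraries: without young control 3 Rpl6 passed (2.95, adjusted p = 0.0124), and without old het 2 Rpl6 (2.86, adjusted p = 0.00838), Rpl22 (-1.73, adjusted p = 0.0497) and Rps10 (-1.51, adjusted p = 0.0473) passed. Calls over all genes in these 2 fits are not given here, so these calls cannot be read as particular to the family.

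Most calls of the family lay between the 2 groups of control mice. Of the 75 members 5 passed the test between old and young controls (6.67%, against 6.98% of all genes). Rps18 and Rps10 were higher in old controls, as were 2.79% of all genes, and Rpl6, Rpsa and Rplp1 were lower, as were 4.19% of all genes. Both comparisons of young mice and of controls use the same young control libraries, so that they are not independent.

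Rpl6 measured 53.8, 83.5 and 73.4 CPM in old controls against the 247 to 656 CPM of the young controls given above, and 138, 64.1 and 127 CPM in old hets. Only the young controls stood out: the 9 libraries of the other groups lay between 53.8 and 159 CPM. The fall from young to old controls was -2.80 on the log2 scale (SE 0.40, 6.95-fold, adjusted p = 9.39e-04), and it passed the test without any 1 of the 6 libraries (adjusted p from 2.46e-04 to 0.00965).

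Rpsa, a small subunit protein also known as the laminin receptor, measured 189.7, 203 and 189.7 CPM in old controls and 546, 354 and 573 CPM in young controls. All old controls lay below all young controls, and old hets 1 and 3 (381 and 398 CPM) lay among the young mice while old het 2 (179.6 CPM) lay with the old controls. The log2 change was -1.34 (SE 0.33, adjusted p = 0.0189). Rplp1 measured 2052, 3262 and 3631 CPM in old controls and 6502, 5254 and 13457 CPM in young controls, without overlap, at -1.50 (SE 0.45, adjusted p = 0.0492). Its old hets measured 7139, 2091 and 5556 CPM, and again old het 2 lay with the old controls.

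The 2 genes that were higher in old controls are parts of the small subunit. Rps18 measured 332, 243 and 264 CPM in old controls and 119, 88.4 and 81.8 CPM in young controls, a log2 change of 1.53 (SE 0.42, adjusted p = 0.0335). Rps10, one of the genes mutated in Diamond-Blackfan anaemia, measured 982, 864 and 791 CPM in old controls and 412, 396 and 421 CPM in young controls, a change of 1.10 (SE 0.32, adjusted p = 0.0413). In both genes the control groups did not overlap, and old het 2 (263 and 837 CPM) lay within or near the range of the old controls while old hets 1 and 3 lay below it.

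These 4 calls were close to the threshold. Those of Rps18 and Rps10 were lost when any 1 of the 6 libraries was left out (adjusted p from 0.0603 to 0.114 and from 0.0714 to 0.137). That of Rpsa was lost without old control 1 (0.0708), old control 2 (0.0653), old control 3 (0.0734) or young control 1 (0.0506), and that of Rplp1 without any library but young control 2 (0.0566 to 0.195).

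**Figure D4:**
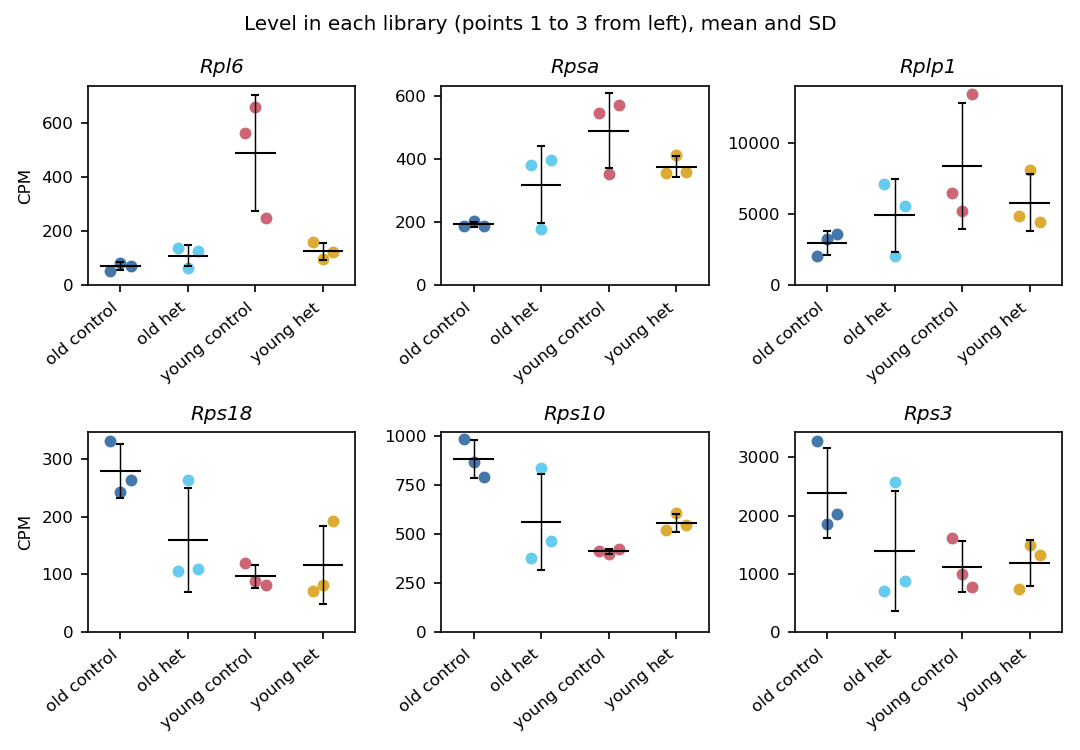
Level (CPM) of Rpl6, Rpsa, Rplp1, Rps18, Rps10 and Rps3 in each library, as 1 point per library in the order 1 to 3 from the left, with the group mean and SD as lines. Rpl6 is high only in young controls, and in the other 5 genes old het 2 lies near the old controls.

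Beyond the called genes, 58 of 75 members (77.3%) were at higher fitted levels in old than in young controls, against 57.9% of all genes, with a median log2 difference of 0.52 against 0.22. The median was 0.58 in small and 0.46 in large subunit genes. In 23 members all old controls lay above all young controls (30.7%, against 19% of all genes) and in 7 all lay below (9.33%, against 12.2%). At an unadjusted p under 0.05 stood 22 members (29.3%), against 23.1% of all genes. Rpl22 (1.14, adjusted p = 0.0535) and Rps9 (1.03, adjusted p = 0.0552) came next to the threshold.

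Other RNA moved with this comparison. Mitochondrial ribosomal RNA took 1.70% to 2.38% of the counts in old controls and 4.35% to 8.22% in young controls, and transcripts of the mitochondrial protein genes 0.862% to 1.08% and 3.07% to 5.58%. With the log2 share of mitochondrial ribosomal RNA as a covariate the median of the members was 0.11, equal to that of all genes, and none of the 5 calls held (adjusted p = 0.323 for Rpl6). The loss was not particular to the family: over all genes 6 passed with the covariate, against 740 without it. This share did not overlap between the control groups, so that it cannot be fully told apart from the group difference. Among cell type markers, 7 of 7 tested dendritic and MHC class II genes lay higher in old controls (median 3.87, 4 past the test), with summed levels of 10 listed genes of 644 to 1239 CPM against 176 to 395 CPM and 0 to 1 against 4 to 5 of them at 0. All 11 tested stem and multipotent progenitor genes lay higher as well (median 0.99, 2 past the test, 773 to 2320 against 546 to 722 CPM, 0 to 2 against 1 to 5 of 14 at 0), and of 11 megakaryocyte genes 9 did (median 1.48, none past the test, 294 to 740.4 against 189.1 to 243 CPM, 1 against 1 to 5 of 14 at 0). These 3 sums did not overlap between the control groups. Nor did that of 10 T and NK genes (81.4 to 148 against 23.8 to 42.0 CPM, 4 to 6 against 7 to 8 at 0). Only 2 of these genes were tested, 1 of them higher and none past the test. Basophil and mast genes overlapped in their sum (494 to 746 and 265 to 566 CPM), with 5 of 6 tested genes higher and 1 past the test as higher. The summed level of 12 B lymphoid genes was 38.2 to 409 CPM in old and 228 to 283 CPM in young controls, with 2 to 5 of the 12 at 0 in each library. The 409 CPM were those of old control 1. Of 8 tested B lymphoid genes 3 passed the test as lower in old controls, and 4 lay wholly below. The sum of 20 erythroid genes was 1060 to 3018 CPM and 2747 to 2888 CPM, with 1 to 3 at 0 and 16 of 18 tested genes lower, none past the test. Mature neutrophil and monocyte genes summed to 3086 to 7243 CPM and 7259 to 13063 CPM, narrowly without overlap, with 7 of 13 tested genes higher but 2 past the test as lower. The sum of 13 primary granule genes was 9070 to 19627 CPM and 6216 to 13305 CPM, with none at 0 and 4 of the 13 past the test as higher in old. Their part in the differences was not tested.

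Between old and young hets no member passed in edgeR, against 0.00943% of all genes, and the median was -0.01, against 0.01. With DESeq2 and limma-voom no member passed either, while 15 and 1 of all genes did. Of the members 37 lay above 0 (49.3%, against 50.6%), 2 stood wholly above (2.67%, against 7.08%) and 3 wholly below (4.00%, against 6.95%), and 1, Rpl23 at -0.78 (SE 0.32, adjusted p = 0.723), had an unadjusted p under 0.05 (1.33%, against 6.28%). Rpl27a lay at -0.63 on the lower side, and Rpl3 at 1.48, Rps23 at 2.43 and Rplp2 at 0.62 had the smallest p-values on the higher side (adjusted p from 0.839 to 0.864). All 18 tested erythroid genes lay lower in old hets (median -1.14), none past the test. Of these 8 stood at an unadjusted p under 0.05 and 9 wholly below. Their list summed to 915 to 1816 CPM in old and 1996 to 3244 CPM in young hets. Sums of mature neutrophil and monocyte, basophil and mast, and B lymphoid genes also lay wholly lower. That of dendritic and MHC class II genes lay wholly higher, and the other sums overlapped. The part of these markers was not tested. Whether the age differences of hets and controls differ is the same interaction as above, which no member passed in edgeR and Rpl6 alone passed in DESeq2 (2.67, adjusted p = 5.89e-04).

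**Figure D5:**
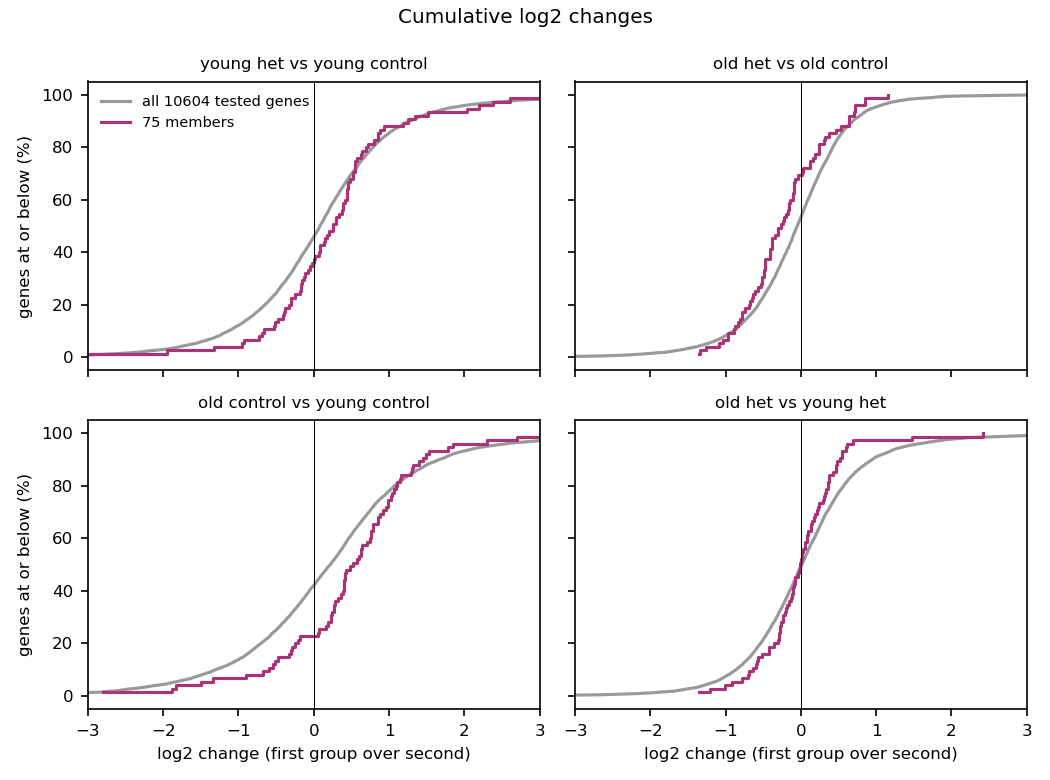
Cumulative share of genes (%) at or below a log2 change, for the 75 tested members and all 10604 tested genes in 4 comparisons (axis ending at -3 and 3). The curve of the members lies right of that of all genes between old and young controls (medians 0.52 and 0.22), left of it between old hets and old controls (-0.26 and -0.05), and on it at the middle between old and young hets.

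By role, Rplp1 was the 1 gene of the P stalk that passed a test. Rplp0, its anchor, measured 547, 446 and 485 CPM in old controls and 403, 282 and 270 CPM in young controls (0.63, adjusted p = 0.275), and Rplp2 369, 660 and 640 CPM and 375, 313 and 501 CPM (0.49, adjusted p = 0.466), while Rplp1 lay lower in old controls as given above. Of the 19 genes tied to Diamond-Blackfan anaemia or the deletion named above, 18 were tested. Their median log2 difference was 0.43 between young het and young control, -0.34 between old het and old control and 0.72 between old and young controls, against 0.18, -0.23 and 0.41 in the other 57 members, and Rps10 was the 1 gene that passed a test. Rps19, the gene most often mutated in that anaemia, measured 1383, 552 and 623 CPM in old controls, 267, 693 and 282 CPM in old hets, 697, 483 and 117 CPM in young controls and 325, 299.5 and 361 CPM in young hets, so that hets and controls overlapped at both ages. Rps14 ranged from 1656 to 2703 CPM over the 12 libraries, without a call. The 4 X-linked genes Rpl10, Rpl36a, Rpl39 and Rps4x gave no call, and Rpl39 was the 1 among them above 20 CPM (136.6, 103, 55.4 and 79.0 CPM as means of old controls, old hets, young controls and young hets).

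Of the paralogs that match the rule, Rpl7l1 averaged 258 CPM, Rps27l, a target of p53, 57.4 CPM, Rpl22l1 53.1 CPM and Rps4y2 21.2 CPM, and none passed a test. Rpl22l1, which the protein of Rpl22 is known to hold down, showed no opposite pattern to Rpl22: both were higher in all old controls than in all young controls, at 1.05 (adjusted p = 0.204) and 1.14 log2 units.

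Genes that work with the family were read from lists. Of 20 tested mRNAs outside the family that also start with a TOP motif, such as elongation factors, 2 (10.0%, against 6.98% of all genes) changed between old and young controls: Npm1, a nucleolar chaperone, was lower at -2.19 (SE 0.51, adjusted p = 0.0131) and Vim, the intermediate filament protein vimentin, higher at 1.17 (SE 0.33, adjusted p = 0.0383). Their median was 0.48 there, 0.02 between young het and young control and -0.08 between old het and old control, against 0.22, 0.08 and -0.05 for all genes. Of 62 ribosome biogenesis genes 3 (4.84%, against 6.98% of all genes) passed between old and young controls, all lower in old: Wdr12, of the PeBoW complex (-1.96, SE 0.35, adjusted p = 0.00229), Mrto4, which prepares the site of the P stalk (-1.46, SE 0.42, adjusted p = 0.0407), and Nop58, a core protein of the box C/D particles (-1.20, SE 0.36, adjusted p = 0.0474). Their medians were 0.07, -0.05 and 0.01 in the same order of comparisons. Of 19 regulators of TOP mRNAs and of ribosome stress none passed, with Eif4ebp1 at -1.38 (adjusted p = 0.0875) between old and young controls and Mdm2 at 1.17 (adjusted p = 0.176) between young het and young control, and medians of 0.40, 0.24 and -0.09. No gene of the 3 lists passed in the other 4 comparisons. Between young het and young control the smallest p-values belonged to Eif3h (1.11, adjusted p = 0.115) and Npm1 (-1.75, adjusted p = 0.118) among the TOP mRNAs and to Nop58 (-1.10, adjusted p = 0.165) and Wdr12 (-0.91, adjusted p = 0.226) among the biogenesis genes. Between old het and old control they belonged to Naca (-0.99), Tpt1 (-0.75), Gar1 (-1.34) and Wdr12 (0.86), each at an adjusted p of 0.999, and between old and young hets Trp53, the gene of p53, stood at 1.15 (adjusted p = 0.615).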

How the data were processed

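Myeloid progenitor RNA of 12 libraries was prepared with a Lexogen 3′ kit, per the labels' protocols. The authors deposited raw counts per gene symbol. STAR 2.4, HTSeq 0.6.1, DESeq2 and the build mm9 are named per the submitters' processing notes, without roles; annotation and strand setting: not given in the sources used here. Counts were scaled by TMM and tested with the quasi-likelihood F test of edgeR 4.0.16 in R 4.3.3, on 10604 genes passing filterByExpr (minimum count 10, minimum total 15), with all 4 groups in 1 fit and Benjamini-Hochberg adjustment at 0.05. SEs are the change over the square root of F. Replicates differed by more than sampling noise, with a chi-square of 5.22 to 50.9 per degree of freedom. Replicate numbers follow accession order and pair nothing. The script was tested on simulated data. Alternatives included DESeq2 1.42.0 and limma 3.58.1 (voom). The members and lists were chosen with earlier results of these data known. Named were called members, the 3 smallest p-values per direction, paralogs, role groups, the most abundant members and those failing the filter, and 2 genes per pathway list; some genes are not reported here. Further members with values shown (such as Rps3 and Rpl38) were chosen after their values were seen. Sequences come from RefSeq (GRCm38.p6), with names matched by symbol.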

Additional observations from a re-analysis of the deposited data

How the results depend on the processing

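No called change turned its direction. The median between hets, -0.01, lay near 0 and changed sign: it was 0.00029 with DESeq2, 0.00042 with RLE scaling and 0.0099 with a minimum count of 50. Members called between old and young controls numbered 11 with DESeq2, 8 with limma-voom, 9 without a filter, 3 with only the compared groups fitted, 1 without old control 1 and young control 3, and 0 with the mitochondrial rRNA covariate, against 5. The count over all genes moved too. It was 1295 with DESeq2, 517 with limma-voom, 987 without a filter, 541 with only the compared groups fitted and 6 with the covariate, against 740. It is not given here for the fit without old control 1 and young control 3, so the fall to 1 cannot be read as particular to the members. Between young het and young control 0 were called with only the compared groups fitted, with that covariate, or with mitochondrial and small RNA genes left out (Rpl6 at adjusted p = 0.0817, 0.267 and 0.0553). Over all genes 13, 2 and 8 were called in these settings, against 45. For the interaction 1 was called (Rpl6) with DESeq2, without a filter, with a minimum count of 50, or without old control 1 and young control 3. All-gene calls for it were 296, 216, 62 and 59 in that order, against 9. The covariate moved the medians to 0.0065 in young mice, -0.11 in old mice, -0.22 for the interaction and 0.11 between controls, and the interaction's median was -0.30 with a minimum count of 50 and -0.34 with pseudogene rows added to their gene, an alternative chosen after seeing the data. Medians of all genes in the same order were 0.063, -0.054, -0.12, 0.11, -0.034 and -0.18. With pseudogene rows added, Rpl10a was called lower in old than in young controls (-2.85, edgeR adjusted p = 0.00200). The cause of these moves was not tested. Leaving out 1 library at a time gave 0 to 1 calls in young mice, 0 to 3 for the interaction, 1 to 3 between controls and 0 to 0 in old mice and between hets. Calls over all genes with 1 library left out are not given here. Medians then ran from 0.17 to 0.43 in young mice, -0.42 to -0.16 in old mice, -0.79 to -0.36 for the interaction, 0.42 to 0.59 between controls and -0.27 to 0.082 between hets, and mean member shares from 3.81% to 4.18% (old control), 3.29% to 3.55% (old het), 2.42% to 3.08% (young control) and 3.21% to 3.61% (young het). Fitting only the compared groups was not run for the interaction, which uses all 4. With 3 libraries a group and 645460 counts in the shallowest, members under 20 CPM were not resolved.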
